A study of Mus musculus with 4 samples.

Results

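Genes of thyroid hormone activation, transport and reception were examined in mouse hearts under pressure overload. There were 6 of them among the 21739 genes that could be named on the array, and 11 of the 55681 features other than controls belonged to them. The members were the deiodinases Dio1, Dio2 and Dio3, the receptors Thra and Thrb, and the transporter Slc16a10. They were picked from measured values of these arrays, because Dio2 rose strongly after surgery, so the values of both surgery comparisons are given below as a description.

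The thyroid gland releases mainly the prohormone thyroxine (T4). Target tissues convert it to the active hormone triiodothyronine (T3) with the deiodinases DIO1 and DIO2, and DIO3 destroys both T4 and T3, so that a tissue can set its own hormone level. T3 enters cells through membrane transporters and binds the nuclear receptors THRA and THRB, which pair with retinoid X receptors on DNA. In the rodent heart T3 is known to raise the fast myosin heavy chain Myh6 and the calcium pump Atp2a2 and to lower the slow myosin heavy chain Myh7, and DIO3 is known as an enzyme of fetal tissues that can return in injured ones.

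The study screened total RNA of whole hearts from male C57BL/6J mice after transverse aortic constriction (TAC), which loads the left ventricle with pressure, or after a sham operation. Hearts were taken at 2 weeks, when the response is hypertrophic, and at 8 weeks, in the heart failure phase. The sample labels give ages of 10 weeks for both 2-week groups and 16 weeks for both 8-week groups, whereas the methods give 12 weeks at surgery for this screen. Each of the 4 conditions was 1 single-color Agilent array of 1 RNA pool, mixed from 500 ng of each of 4 to 6 mice. Mouse-to-mouse spread was thus not measured, and every fold change below is a ratio of 2 pools given without a test.

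The hearts gave the signal of heart muscle. All 6 cardiomyocyte markers were well above background on every array, and their signals, each divided by the 75th percentile of its array, summed to 5238 and 5015 on the 2-week sham and TAC arrays and to 5059 and 4469 on the 8-week arrays. At 8 weeks all 6 were lower after TAC, none past 2-fold, with a median log2 difference of -0.30 (-0.18 at 2 weeks). The fat markers Adipoq, Plin1, Cidec and Lep and the brown fat markers Ucp1 and Elovl3 were not well above background on any array. The other 2 brown fat markers, Cidea and Prdm16, were measured on every array, Cidea at 40.9 and 39.8 at 2 weeks and 35.4 and 47.6 at 8 weeks, and Prdm16 at 0.867 to 1.16. Of 5 thyroid gland markers only Tg was measured, at -0.18 and -0.22 (log2 TAC over sham at 2 and 8 weeks). Fibroblast markers summed to 156 and 187 on the 2-week sham and TAC arrays and to 180 and 230 on the 8-week arrays. Macrophage markers summed to 31.2 and 39.0 at 2 weeks and to 31.7 and 40.3 at 8 weeks. The fibroblast and macrophage sums were thus higher and the cardiomyocyte sum lower after TAC at both times, and their part in the results below was not tested. The fibroblast sum was mostly Dcn, at 143 and 162 at 2 weeks and 167 and 203 at 8 weeks. At 8 weeks 3 of the 4 fibroblast markers were higher and Tcf21 was lower (-0.55). At 2 weeks 4 of the 6 cardiomyocyte markers were lower, while Actc1 (0.01) and Myl2 (0.06) were not on their brightest probes. The other Myl2 probe had -0.40 at 2 weeks. In RNA of whole hearts, fewer cells of a type and less RNA per cell cannot be told apart. Of the genes known to rise under load, the natriuretic peptide genes rose, Nppa (log2 changes of 1.84 and 2.65) and Nppb (1.03 and 1.94).

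The deiodinases are selenoproteins, and the codon that places selenocysteine in their active site is a TGA that would otherwise end translation. The sequence around this codon is shown because it is the part of these genes on which their enzyme activity rests. Capitals mark the TGA within 33 bases of coding sequence of the RefSeq annotation of GRCm38.p6, written along the coding strand.

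Dio1: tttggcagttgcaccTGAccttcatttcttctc
Dio2: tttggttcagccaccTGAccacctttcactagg
Dio3: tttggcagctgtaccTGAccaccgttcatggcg

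The Dio1 window lies at chr4:107297685-107297717 on the minus strand in coding exon 2 of 4, and its TGA encodes residue 126. The Dio2 window lies at chr12:90729808-90729840 on the minus strand in coding exon 2 of 2, with the TGA at residue 130. The Dio3 window lies at chr12:110279724-110279756 on the plus strand in coding exon 1 of 1, with the TGA at residue 170. All 3 windows share 16 of the 33 bases, Dio1 and Dio2 share 18, Dio1 and Dio3 share 22, and Dio2 and Dio3 share 21. Dio2 and Dio3 lie on the same chromosome, and the whole Dio2 gene spans chr12:90724552-90739038.

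The promoter of Dio2 is shown because the array measured a large difference in its transcript. The 250 bases before the RefSeq start of Dio2 lie at chr12:90739039-90739288 of GRCm38.p6 on the minus strand, with capitals marking a TGACGTCA and a TATAAA.

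Dio2 promoter: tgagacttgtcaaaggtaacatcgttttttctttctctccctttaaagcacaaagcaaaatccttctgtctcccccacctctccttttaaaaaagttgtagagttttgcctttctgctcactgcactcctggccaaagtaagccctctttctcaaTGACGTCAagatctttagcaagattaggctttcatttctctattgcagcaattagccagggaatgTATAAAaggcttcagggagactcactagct

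The palindrome TGACGTCA, the letters of the cyclic AMP response element, lay 95 to 88 bases before the start. TATAAA, the letters of a TATA box, lay 30 to 25 bases before it. On either strand, 1.55% of 32851 RefSeq promoter windows of 250 bases before a start held TGACGTCA and 12.4% held TATAAA. The half-site that thyroid hormone receptors bind, AGGTCA, was in 14.0% of the windows. Among the members with a listed promoter, TGACGTCA was found for Dio2, TATAAA for Dio2, Dio3 and 1 of 2 Thrb promoters, and AGGTCA for 1 of 2 Thrb promoters. Such a match is a run of letters and was not tested as a binding site.

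Dio2, the enzyme that makes T3 inside the cells that use it, rose after TAC at both times and by more at 8 weeks. Signals are given throughout as multiples of the 75th percentile of their own array. The single Dio2 probe read 0.0891 on the sham array and 0.469 on the TAC array at 2 weeks. At 8 weeks it read 0.0887 on the sham array and 1.11 on the TAC array. Both TAC values lay above both sham values, and the sham values were nearly the same. TAC over sham was 5.26-fold (log2 2.40) at 2 weeks and 12.5-fold (log2 3.64) at 8 weeks. The probe was well above background on all 4 arrays, so both folds are measured ratios. Their sham values were dim, though, near the lowest signals well above background on the 2 sham arrays (0.0600 and 0.0529).

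The precision of one array can be set against these values, although not the spread among mice. Probes printed several times on the array (399 probes) gave the scatter between spots, which for a difference between the Dio2 values came to a technical SD of 0.263 on the log2 scale. The Dio2 differences were 9.11 and 13.9 times this SD. Among 14293 genes well above background on all 4 arrays, the Dio2 change had the rank 7 from the top at 2 weeks and 5 at 8 weeks. Dio2 was picked for its rise on these arrays, so its ranks and multiples of the SD are a description only. The median size of a change over these genes was 0.146 at 2 weeks and 0.171 at 8 weeks, and the 95th percentile was 0.646 and 0.757, on the log2 scale. The size of the Dio2 fold depended on the background correction. With the normexp correction the log2 differences were 1.01 and 1.94. The sham Dio2 signals were 18.4 and 19.6 units before scaling, so the offset by itself shrinks these ratios. How much came from the background step was not tested.

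**Figure D1:**
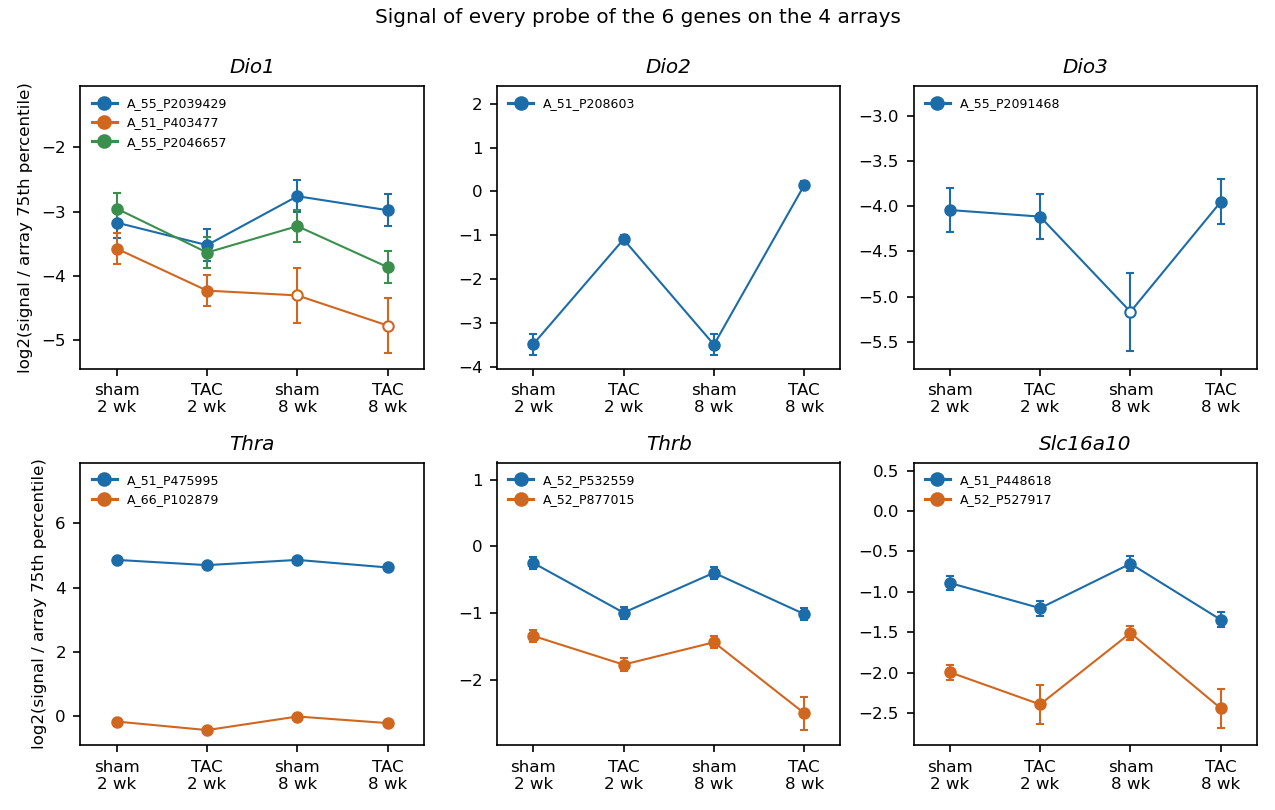
Signal of the 11 probes of the 6 genes on the 4 arrays (x axis: condition and weeks after surgery; y axis: log2 of the signal over the array's 75th percentile, with its own range in each panel). Each line is 1 probe, filled points are well above background and open points are not. Bars are the technical SD of 1 signal from repeated spots, which is smaller than the technical SD of a difference used in the text. Dio2 stands at 0.0891 and 0.0887 of the percentile on the sham arrays against 0.469 and 1.11 on the TAC arrays.

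Dio3, which inactivates T4 and T3, was close to the limit of detection. Its single probe read 0.0606 on the 2-week sham array and 0.0576 on the 2-week TAC array. At 8 weeks it read 0.0278 on the sham array, where it was not well above background, and 0.0646 on the TAC array. The lowest signals that counted as well above background lay between 0.0469 and 0.0600 on the 4 arrays, so 3 of the Dio3 values stood close to this limit and the 8-week sham value under it. The 2-week difference was -0.07 on the log2 scale. With the 8-week sham value set to the lowest signal well above background on its array, TAC was 1.22-fold higher. The measured log2 ratio, on which Dio3 was called, was 1.22. The 8-week sham array set this call, since the 3 other arrays lay between 0.0576 and 0.0646, and with the normexp correction the log2 ratio was -0.0076.

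Dio1, the deiodinase best known from liver and kidney, had 3 probes and no difference over 2-fold. The brightest probe read 0.111 and 0.0872 on the 2-week sham and TAC arrays and 0.148 and 0.127 on the 8-week arrays. A further probe read 0.129 and 0.0805 at 2 weeks and 0.107 and 0.0687 at 8 weeks. The log2 differences were -0.35 and -0.22 for the first probe and -0.68 and -0.64 for the other, and none of these was over 1.96 times its technical SD. The third probe was at -0.65 at 2 weeks and was not well above background on either 8-week array. On the array pairs that measured it, every Dio1 probe was thus lower after TAC, by less than the spot scatter could separate.

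Thra encodes the receptor that predominates in the heart, and its signal differed little between the arrays. Its bright probe read 29.1 and 26.0 on the 2-week sham and TAC arrays and 29.1 and 24.7 on the 8-week arrays. The other probe read 0.891 and 0.741 at 2 weeks and 0.993 and 0.861 at 8 weeks. The log2 differences were -0.16 and -0.24 for the bright probe and -0.27 and -0.21 for the other. At both times the 2 probes were lower after TAC than after sham, by 1.58 to 2.74 times the technical SD. The files hold no probe sequences, so the transcript variants that each probe reads were not resolved.

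Thra shares its end with Nr1d1, a repressor of the circadian clock on the opposite strand. In GRCm38.p6 Thra spans chr11:98740776-98769006 and Nr1d1 spans chr11:98767932-98775377. Nr1d1 had log2 differences of -0.39 and -0.16 and was not called at either time.

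Thrb encodes the other receptor, which spans chr14:17659225-18040097, and both of its probes were lower after TAC at both times. The brighter probe read 0.841 on the sham array and 0.501 on the TAC array at 2 weeks. At 8 weeks it read 0.759 and 0.494. Both TAC values lay below both sham values. Sham over TAC was 1.68-fold at 2 weeks (log2 TAC over sham -0.75) and 1.54-fold at 8 weeks (-0.62), which is 5.74 and 4.77 times the technical SD, and neither passed 2-fold.

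The dimmer Thrb probe gave the same order of the arrays. It read 0.394 and 0.292 at 2 weeks and 0.369 and 0.176 at 8 weeks. Its log2 difference was -0.43 at 2 weeks and -1.06 at 8 weeks, so at 8 weeks this probe alone fell past the threshold, 2.09-fold. The brighter probe thus had the larger difference at 2 weeks and the dimmer one at 8 weeks. On the scale of the brighter probe, Thrb had the rank 176 from the bottom of the 14293 genes at 2 weeks and 471 at 8 weeks.

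Slc16a10 encodes a facilitative transporter of iodothyronines and aromatic amino acids and spans chr10:40033532-40142270. Its brighter probe read 0.540 and 0.435 on the 2-week sham and TAC arrays and 0.637 and 0.393 on the 8-week arrays. The dimmer probe read 0.251 and 0.190 at 2 weeks and 0.351 and 0.184 at 8 weeks. On both probes the TAC values lay below the sham values, and the 8-week sham array was the highest. The log2 differences were -0.31 and -0.40 at 2 weeks and -0.69 and -0.93 at 8 weeks. The 8-week differences were 1.62-fold and 1.91-fold and stayed under the threshold. The sham arrays themselves differed by 0.24 and 0.49, so part of each 8-week difference came from the higher 8-week sham signal.

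A gene was called when its brightest probe differed by over 2-fold and was well above background on the brighter array. At 2 weeks 1 of the 6 members was called higher, Dio2, where 2.42% of 15405 measured genes were, and 0 were called lower, where 1.18% were. At 8 weeks 2 members were called higher, Dio2 and Dio3, beside 3.26% of 15466 genes, and 0 were called lower, beside 2.04%. Dio2 alone was called higher at both times, as were 0.763% of 15852 genes, and no member (0) was called lower at both, as were 0.233%. The members were picked on these very contrasts, so nothing is read from these shares. The median log2 difference over the 6 members was -0.24 at 2 weeks and -0.23 at 8 weeks, against 0.00 and -0.01 over all genes measured.

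**Figure D2:**
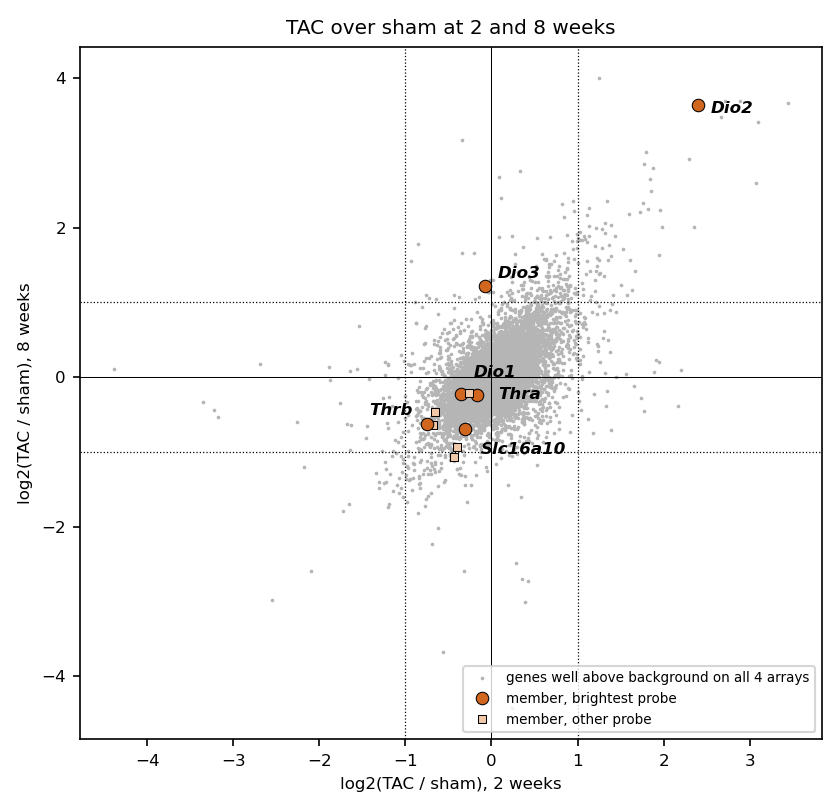
Log2 TAC over sham at 2 weeks (x axis) and at 8 weeks (y axis), with grey points for the 14293 genes well above background on all 4 arrays, circles for the brightest probe of each member and squares for their other probes; dotted lines mark 2-fold. Dio2 lies at 2.40 and 3.64 at the upper right edge, Dio3 is off the axis at 8 weeks alone, and the probes of Dio1, Thra, Thrb and Slc16a10 lie below 0 at both times.

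The arrays of one treatment at the 2 times were compared as well, where weeks after surgery and age cannot be told apart. Between the sham arrays Dio2 differed by -0.01 on the log2 scale and the bright Thra probe by 0.00. Dio3 was the only one of the members called between the sham arrays, lower at 8 weeks, and 1% of 15186 genes were called lower there. With its 8-week value set to the lowest signal well above background, the difference was 1.15-fold. None of the members (0) was called higher, beside 1.65% of genes. Between the TAC arrays Dio2 was 2.36-fold higher at 8 weeks than at 2 weeks (log2 1.24), 9.54 times its technical SD, and was the only member called, where 1.62% of 15570 genes were called higher and 1.71% lower (0 members). The 2 TAC changes of Dio2 therefore differed by 1.25, nearly all of it on the TAC side, and the difference was not tested.

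Genes whose signal over the 4 arrays was like that of Dio2 were found by the Euclidean distance of the log2 values after each gene was centered on its own mean. The nearest among the 14293 genes was Myh7, the slow myosin heavy chain, at a distance of 0.261. Ltbp2, a matrix protein that binds elastic fibers, was at 0.403. Acta1, the skeletal muscle actin of the fetal heart, was at 0.570 and Postn, the matrix protein periostin, at 0.574. Myh7 rose 6.55-fold and 12.9-fold, Ltbp2 6.34-fold and 11.1-fold, and Postn 4.90-fold and 7.59-fold at 2 and 8 weeks. With 4 arrays, a likeness of this kind says only that these genes also stood higher on both TAC arrays and highest on the 8-week TAC array.

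Few of the other transporters of thyroid hormone were called, as among all genes. Of 10 further transporters 8 were measured, 0 were called at 2 weeks and 1 was called lower at 8 weeks. Over all genes 2.42% were called higher and 1.18% lower at 2 weeks, and 3.26% and 2.04% at 8 weeks. Slco3a1, an organic anion transporter, had log2 differences of 0.06 and 0.32 (its 3 probes ranged from -0.08 to 0.34 at 8 weeks), Slc3a2, the heavy chain of the amino acid transporters that also carry T3, had 0.16 and 0.42, and Slco2b1 had 0.04 and -0.01. The one called was Slco1c1, a T4 transporter known from brain vessels, which read 0.0997 and 0.115 at 2 weeks and 0.205 and 0.0998 at 8 weeks. Only the 8-week sham array was high for Slco1c1, and its 8-week log2 difference of -1.04 was called under the main scaling but was -0.95 after median scaling and -0.45 with normexp. The median of the 8 transporters was 0.15 at 2 weeks and -0.02 at 8 weeks.

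Among genes of hormone binding and breakdown, Crym, a cytosolic protein that binds T3, rose after TAC at both times. It read 0.0387 and 0.0851 at 2 weeks and 0.0553 and 0.175 at 8 weeks, and was well above background on both TAC arrays and on neither sham array. With the 2-week sham value set to the lowest signal well above background on its array, TAC over sham was 1.42-fold. At 8 weeks the sham value already exceeded the lowest such signal of its array (0.0529), so 3.16-fold is the measured ratio. With the normexp correction the log2 differences of Crym were 0.22 and 0.27, under the threshold. Ttr, a carrier of T4 in plasma, read 0.0912 and 0.138 at 2 weeks and 0.0726 and 0.162 at 8 weeks and was called higher at 8 weeks, 2.23-fold, but its 8-week log2 difference was 0.31 with normexp. Sult1a1, a sulfotransferase, had log2 differences of -0.08 and -0.14, and Serpina7 and Iyd were not well above background on any array. These 3 measured genes had a median of 0.59 at 2 weeks and 1.16 at 8 weeks.

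The DIO2 protein is removed by ubiquitination, and all deiodinases need the machinery that inserts selenocysteine. None of 9 genes of these steps was called (0 at 2 weeks and 0 at 8 weeks), with medians of -0.08 and -0.03. The shares over all genes were 2.42% higher and 1.18% lower at 2 weeks, and 3.26% and 2.04% at 8 weeks. With shares this small, nothing is read from the count of 0. The deubiquitinases Usp20 and Usp33 had log2 differences of 0.01 and 0.10, and of -0.08 and -0.20. Secisbp2 and Trnau1ap, which act in selenocysteine insertion, had -0.24 and -0.16, and -0.17 and 0.02. Singled out after their values were seen, the ubiquitin ligase genes Wsb1 and Marchf6 had 0.16 and 0.60, and -0.35 and 0.19, and Sephs2, which makes the selenium donor, had -0.24 and -0.78. Wsb1 and Sephs2 were dim, at 0.0916 to 0.144 and 0.0665 to 0.114. With normexp Wsb1 had -0.0007 and 0.07, and Sephs2 had -0.04 and -0.40.

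The partners of the receptors had median differences near 0. All 13 retinoid X receptors, corepressors and coactivators on the list were measured, 0 were called at either time, and their medians were -0.08 and -0.07. Among all genes 2.42% were called higher and 1.18% lower at 2 weeks, and 3.26% and 2.04% at 8 weeks. Rxrg, the retinoid X receptor of striated muscle, had log2 differences of -0.28 and -0.51. Rxrb had -0.07 and -0.07, and the coactivator subunit Med1 had 0.12 and 0.04. Singled out after its values were seen, Tbl1xr1 had 0.43 and 0.35, the highest of the 13 at both times. Its 2 probes ranged from 0.39 to 0.43 at 2 weeks and from 0.35 to 0.46 at 8 weeks. Relative to the median of all genes, 11 of the 13 were lower at 2 weeks and 9 at 8 weeks, and 9 and 7 were with normexp. Median scaling and no scaling shift all genes of an array alike, so they cannot change these counts. Against 0, 11 were lower at 2 weeks with either of them. At 8 weeks 5 were below 0 after median scaling and 2 without scaling. Probes of 1 gene could differ: the other Rxrg probe had -0.17 and -0.13, and the 4 Med1 probes ranged from -0.07 to 0.08 at 8 weeks.

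**Figure D3:**
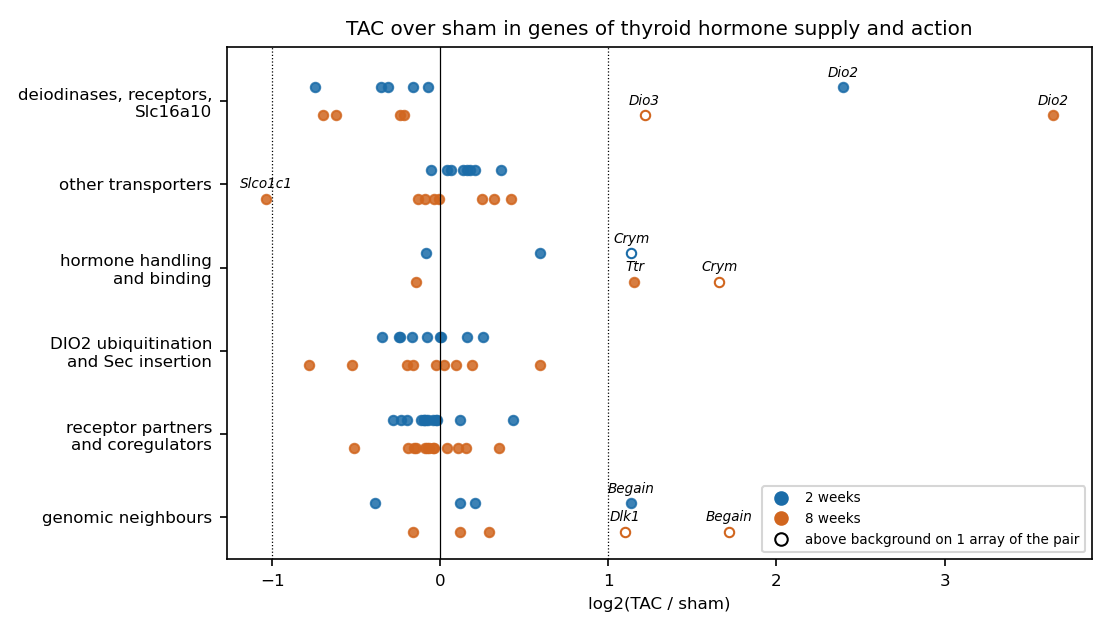
Log2 TAC over sham (x axis) for the members and 5 lists of related genes (y axis), 1 point per gene and time, blue for 2 weeks and orange for 8 weeks; open points were well above background on 1 array of the pair, dotted lines mark 2-fold and called genes are named. Dio2 stands at 2.40 and 3.64, whereas the genes of DIO2 ubiquitination and selenocysteine insertion and the receptor partners all lie between the dotted lines.

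Genes that T3 is known to raise in the heart or other tissues mostly had small negative log2 differences after TAC. Of 18 on the list 17 were measured, 12 were below 0 and 5 above 0 at each time, and 1 was called lower, at 8 weeks. Of all genes 2.04% were called lower at 8 weeks. The medians were -0.19 and -0.17, against 0.00 and -0.01 over all genes. Relative to the median of all genes, 12 of the 17 were lower at each time, and 13 and 11 were with normexp. Median scaling and no scaling shift all genes of an array alike, so they cannot change these counts. Against 0, 13 were lower at 2 weeks and 9 at 8 weeks with either of these 2 settings. The cardiomyocyte markers, of which Ryr2 is on this list too, were lower at 8 weeks as well, and their part was not tested. The called gene was Kcnd2, a subunit of the transient outward potassium current, which read 2.21 and 1.46 at 2 weeks and 2.38 and 1.16 at 8 weeks. Kcnd2 fell 2.05-fold at 8 weeks, 7.97 times the technical SD, and its log2 difference of -1.04 became -0.95 after median scaling and -0.89 with normexp, which are under the threshold.

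Of the genes raised by T3, the 4 with the highest signal were not called. Myh6 read 1854 and 1622 at 2 weeks and 1713 and 1499 at 8 weeks, a log2 difference of -0.19 at both times, and its dimmer probe had -0.36 and -0.54. Atp2a2, the calcium pump of the sarcoplasmic reticulum, had -0.45 and -0.37. The glucose transporter Slc2a4 had -0.30 and -0.33, and the pacemaker channel Hcn2 had 0.08 and -0.04, with a dimmer probe at -0.24 and -0.61. Singled out after their values were seen, the beta-adrenergic receptor Adrb1 had -0.43 and -0.79, the calcium release channel Ryr2 had -0.15 and -0.63, and the corepressor Hr had 0.48 and 0.75, the highest of the 17 at both times. The values of these targets thus lay on both sides of 0.

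Of 5 genes that T3 is known to lower, only Myh7 was called, and it rose at both times. Over all genes 0.763% were called higher at both times. Myh7 read 69.4 on the sham array and 455 on the TAC array at 2 weeks, and 69.3 and 895 at 8 weeks. The other 4 were below 0 at both times under the main scaling. At 8 weeks 3 were below 0 after median scaling and 2 without scaling. Relative to the median of all genes, 4 were lower at both times with either setting. Pln, the inhibitor of the calcium pump, had log2 differences of -0.42 and -0.49, the adenylyl cyclases Adcy6 and Adcy5 had -0.22 and -0.48, and -0.07 and -0.02. The 3 Adcy5 probes ranged from -0.02 to 0.05 at 8 weeks. The medians of the 5 genes were -0.07 and -0.14.

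**Figure D4:**
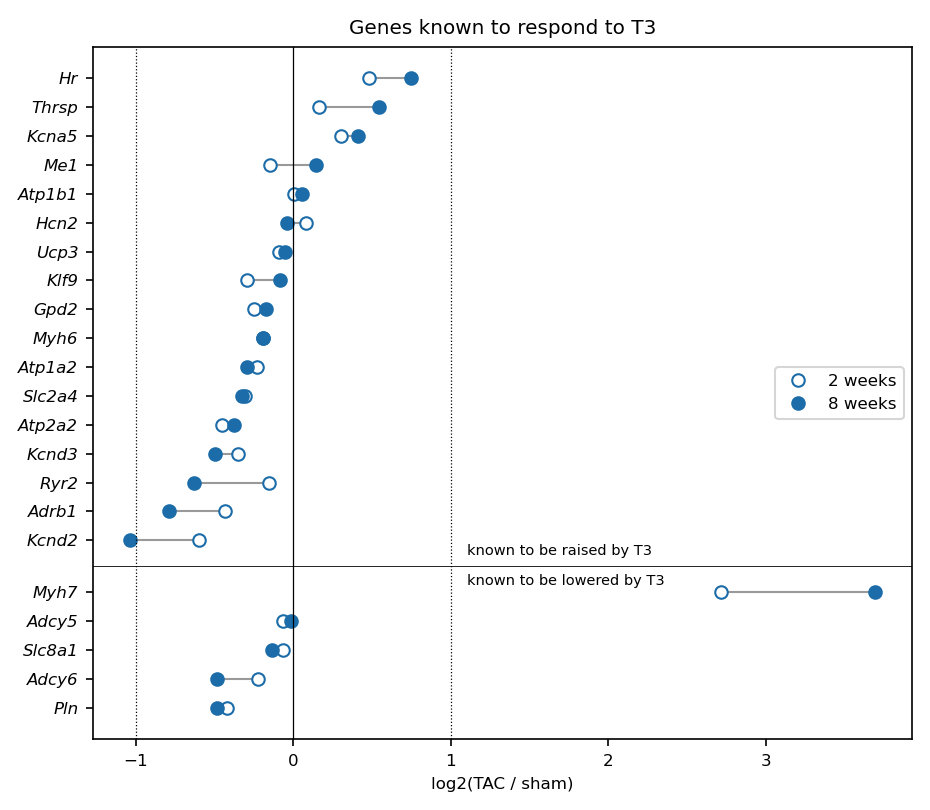
Log2 TAC over sham (x axis) at 2 weeks (open circles) and 8 weeks (filled circles) for the 17 measured genes known to be raised by T3 and the 5 known to be lowered by it (y axis, ordered by the 8-week value within each list); dotted lines mark 2-fold. Kcnd2 at -1.04 and Myh7 at 2.71 and 3.69 are the genes beyond them.

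Dio3 lies at the end of an imprinted cluster, at chr12:110279230-110281097, and the other genes of the cluster were read for comparison. Begain, at chr12:109032181-109068242, read 0.0762 and 0.167 at 2 weeks and 0.0492 and 0.162 at 8 weeks, and was called higher at both times. The ratio was 2.20 at 2 weeks. At 8 weeks it was 3.06 with the sham value set to the lowest signal well above background on its array. With normexp the log2 differences of Begain were 0.34 and 0.36, under the threshold. Dlk1, a growth regulator expressed from the paternal allele as Dio3 is, was well above background on the 8-week TAC array alone. There it was 1.20-fold higher than sham with the sham value set in the same way, and the log2 ratio was 0.15 under normexp. Its second probe was not well above background on any array. The noncoding RNAs Meg3 and Mirg of the same cluster had log2 differences of 0.21 and 0.12, and of 0.12 and 0.29. Begain, Dlk1 and Dio3 were all dim, and their 8-week sham signals were all not well above background.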

How the data were processed

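The authors hybridized Cy3-labeled cRNA from 0.1 ug of pooled total RNA to a SurePrint G3 Mouse GE 8x60K array per condition. The intensity values used here are the processed signals of Agilent Feature Extraction, corrected for background and not scaled between arrays. The file headers name version 10.7.3.1 and the submitters' processing notes 9.1. The methods name GeneSpring GX11 without a normalization. The deposited series table holds the same intensity times a constant of 3.52 to 4.35 per array, with medians of 97.2 to 106.3. As an alternative it thus differs from the main setting only by a constant per array.

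Here outlier spots were dropped, spots of a probe were averaged as log2 intensity, and the array's 75th percentile (206.0 to 248.5 units) was subtracted, with Python 3.11.15, pandas 2.3.3 and numpy 2.4.6. On each array 54.7% to 58.5% of probes were well above background and 0 were saturated. The number of arrays, 1 per condition, limits the precision. Probes were named by transcript accession through RefSeq (GRCm38.p6) and GENCODE M21 tables (29501 of 55681 probes), since the files name no genes, and no coordinates of the files (mm9) were used. The brightest probe stood for a gene. A gene was measured when well above background on either array of a pair, and called when it also passed 2-fold. Where the dimmer array was not well above background, the dim value was replaced by the array's lowest signal above that limit, if this was the larger one. A fold so obtained is not a strict lower limit, since it leaves out the technical SD. The technical SD of a difference was taken from repeated spots and does not cover labeling or mice. With both signals in 1 band it was 0.348 below 0.25 of the percentile, 0.130 up to 4, 0.0861 above 4 and 0.611 when not well above background. Members, gene lists and calls were chosen with earlier results of these data known. Named from the lists were called genes and the 2 to 4 with the highest mean signal; other names are marked as such or are markers. Some genes that this rule or the rule of likeness to Dio2 selects are not reported here. The calling step was run on simulated data with spot noise alone and planted changes well past the threshold. That run cannot speak for calls near the threshold or for the spread among mice. Alternatives were quantile, median and no scaling, the percentile over spots, normexp with an offset of 50 (limma 3.58.1, R 4.3.3), the series table, outliers kept, the mean of a gene's probes, a filter on both arrays, and thresholds of 1.5 and 3.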

Additional observations from a re-analysis of the deposited data

Results flagged for a closer look

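Some genes had TAC differences of opposite sign at the 2 times. With 1 array per condition this needs no more than 1 array to differ, and the difference between the times was not tested in any of them. Dio3 was at -0.07 at 2 weeks and 1.22 at 8 weeks (log2 TAC over sham), with the 8-week sham array below the limit of detection. Slco1c1 was at 0.21 and -1.04, with a high 8-week sham array. Smaller values of opposite sign were seen for the ubiquitin ligase gene Marchf6 (-0.35 and 0.19) and the malic enzyme gene Me1 (-0.15 and 0.15).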

How the results depend on the processing

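No paired analysis was possible because each condition had 1 array and thus 1 replicate number. A fit of treatment over both times, with time as a block, was not run. Over 8 alternatives in scaling, background and probe choice, the log2 TAC over sham of each member kept its sign at both times, except Dio3 at 8 weeks, which was -0.0076 with normexp. Dio2 ranged from 1.01 to 2.42 at 2 weeks and from 1.94 to 3.81 at 8 weeks, with the lower ends (1.01 and 1.94) from normexp. Normexp also gave -0.52 and -0.43 for Thrb at 2 and 8 weeks and -0.40 for Slc16a10 at 8 weeks. At 8 weeks Thra was -0.15 with median scaling and -0.068 without scaling, and without scaling Thrb was -0.45 and Slc16a10 -0.53. The mean of both probes put Thrb at -0.59 and -0.84. Members called higher at 8 weeks numbered 1 in place of 2 with normexp, with the filter on both arrays and at 3-fold. At 1.5-fold 1 member was called lower at 2 weeks and 2 at 8 weeks. Of the related genes outside the members, 3 were called higher at 2 weeks (1 with normexp, 1 at 3-fold) and 5 at 8 weeks (1 with normexp, 2 with the filter on both arrays, 3 at 3-fold). The 2 called lower at 8 weeks became 1 with quantile scaling and with probe means, 0 with median scaling, without scaling, with normexp and at 3-fold, and 5 at 1.5-fold. At 2 weeks 1 was called lower at 1.5-fold, against 0. Over all genes, 373 and 504 were called higher and 182 and 316 lower at 2 and 8 weeks. Normexp gave 56, 137, 39 and 55, the filter on both arrays 131, 264, 79 and 128, 1.5-fold 1044, 1118, 512 and 869, and 3-fold 166, 239, 100 and 132. Without scaling, the 8-week median over all genes moved to 0.16, and 664 were called higher and 238 lower. Signals near the background limit, as for Dio3, Crym, Begain and Dlk1, limit the precision of their ratios.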
